A study of Homo sapiens with 12 samples.

Results

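The response to the BET inhibitor AZD given alone was taken as the contrast between 6 of the 12 libraries of the study, 3 of SU-DHL-4 cells exposed to AZD and 3 exposed to the vehicle DMSO. All genes of the count table that passed a filter on low counts were taken, 16835 of 46863 genes. SU-DHL-4 is an established cell line of diffuse large B-cell lymphoma (DLBCL) of the germinal centre B-cell (GCB) subtype, grown from a peritoneal effusion and labelled wild type. The AZD group received 0.01 µM AZD5153, a bivalent BET inhibitor, for 72 h, and the DMSO group received the solvent for the same 72 h. Where the same agent was examined in other libraries, these had been exposed for 72 h to 1 µM entospletinib (Ento), an inhibitor of the kinase SYK, or to 1 µM Ento together with 0.01 µM AZD (Ento+AZD). Every group comprised 3 libraries numbered 1 to 3, which the study describes as biological. All values thus come from 1 cell line, 1 concentration and 1 time.

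BET proteins, among them BRD2 and BRD3, bind acetylated histone tails through paired bromodomains. At active promoters and enhancers these proteins help to bring in P-TEFb, the complex of the kinase CDK9 and a T-type cyclin that releases paused RNA polymerase II into elongation. HEXIM1 holds a part of P-TEFb in an inactive complex, and its transcript is widely used as a sign that a BET inhibitor has acted on cells. In lymphoma the inhibitors are best known for lowering MYC and lineage genes that depend on large enhancers.

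Relative to DMSO, 1611 of the 16835 genes tested rose with AZD (9.57% of the genes tested) and 2134 fell (12.7%) at an adjusted p under 0.05, where p-values throughout come from the quasi-likelihood test of edgeR and are adjusted after Benjamini and Hochberg. DEGs, for which the absolute log2 fold change also exceeds 1, were 0.659% of the genes tested on the overexpressed side and 2.53% on the underexpressed side. In 1967 genes (11.7%) every AZD library lay above every DMSO library, and in 2138 genes (12.7%) every AZD library lay below. The median log2 fold change over all genes was 0.01. Total counts lay between 19193603 and 24675830 per library, so that 1 count stood for 0.0393 to 0.0534 CPM (counts scaled to the library total after TMM normalization). Reads of the 2 mitochondrial ribosomal transcripts in the table made up 1.82 ± 0.127% of the counts with DMSO and 1.92 ± 0.253% with AZD (SD, n = 3 each).

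The model behind these counts was fitted to all 12 libraries, which share its estimate of the spread and its replicate term. Fitted to the 6 AZD and DMSO libraries alone, it had 896 genes that rose and 1447 that fell. The counts also depended on the replicate number, which was taken as the batch. With the term left out, 105 genes rose and 221 fell. Leaving out AZD replicate 3 gave 438 and 815, and leaving out AZD replicate 2 gave 657 and 1189. Without DMSO replicate 3, 953 genes rose and 1490 fell. The values per replicate-numbered pair are therefore given beside the main results.

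By gene class, 1225 of 11505 protein-coding genes rose (10.6%) and 1896 fell (16.5%), against 9.57% and 12.7% of all genes. Among 1369 long non-coding RNAs 116 rose (8.47%) and 88 fell (6.43%). Of the 111 overexpressed DEGs, 29 were among these 1369 and 57 among the 11505 protein-coding genes, a larger share of the long non-coding class. Over all genes tested the share was 0.659%. The median DMSO level of the long non-coding RNAs was 1.07 CPM, against 31.7 CPM for protein-coding genes, so that their fold changes rest on fewer counts. On the underexpressed side 45 of the 1369 long non-coding RNAs and 333 of the 11505 protein-coding genes were DEGs, against 2.53% of all genes tested.

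**Figure D1:**
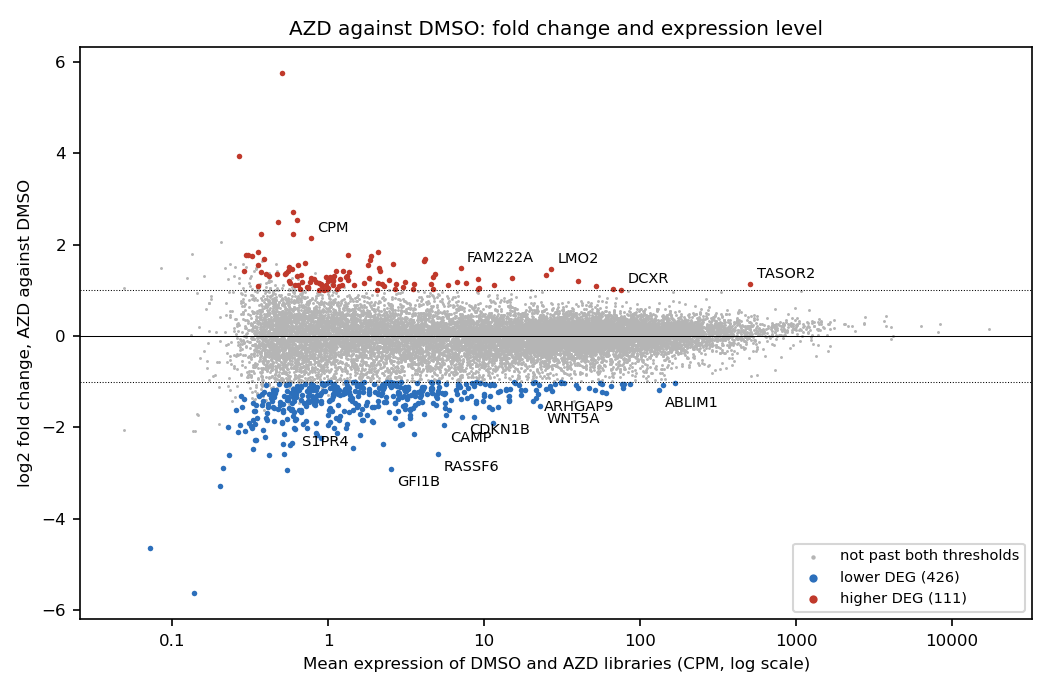
Each point is 1 of 16835 genes, with its mean level over the DMSO and AZD libraries in CPM on a log axis and its fitted log2 fold change of AZD against DMSO, and dotted lines mark log2 fold changes of 1 and −1. The 426 underexpressed DEGs (blue) outnumber the 111 overexpressed DEGs (red), and TASOR2 stands to the right of the other overexpressed DEGs at 321 CPM with DMSO.

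The cells kept the transcripts that mark a GCB lymphoma. All 10 GCB B-cell markers were measured, with a summed level of 4812 to 7008 CPM in the DMSO libraries and 6184 to 8755 CPM in the AZD libraries. MS4A1, which encodes CD20, had at least 43351 counts in every library. Of 9 markers of T and NK cells 3 passed the filter, of 8 myeloid markers 1, of 7 epithelial and stromal markers 2 and of 5 erythroid markers 0. CD3D, CD2, GNLY, S100A8, S100A9, KRT19, CDH1 and HBB had 0 counts in all 6 libraries. The tested T and NK cell markers summed to 7.19 to 7.79 CPM with DMSO and 3.69 to 4.31 CPM with AZD, and the epithelial and stromal pair DCN and PECAM1 to 69.8 to 133 CPM and 48.5 to 125 CPM. TRAC, the constant segment of the T-cell receptor alpha chain, fell from 4.57, 4.12 and 4.48 CPM to 2.44, 1.07 and 2.66 CPM (log2 fold change −1.12, standard error 0.23, adjusted p = 0.00409).

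The transcript of the BET protein BRD2 was at 365 ± 5.38 CPM with DMSO and 359 ± 27.2 CPM with AZD (SD, n = 3 each) and did not pass the test. HEXIM1 rose from 30.2, 24.3 and 27.9 CPM to 38.4, 34.0 and 39.1 CPM, or by 0.44 on the log2 scale (standard error 0.10, adjusted p = 0.00771). All 3 AZD libraries lay above the 3 DMSO libraries. Exons of HEXIM2-AS1 overlap HEXIM1 on the opposite strand. The P-TEFb kinase CDK9 rose by 0.34 on the log2 scale (adjusted p = 0.0238) and its cyclin CCNT1 by 0.24 (adjusted p = 0.036). Of 19 tested genes of the list of BET proteins and P-TEFb these 3 rose (15.8%, against 9.57% of all genes) and 0 fell. Without the replicate term or without AZD replicate 3, 0 of them passed. HEXIM1, CDK9 and CCNT1 had an adjusted p of 0.0571, 0.171 and 0.0789 without AZD replicate 3. CDK9 was lost in 6 of the 11 alternatives and CCNT1 in 8, and in the 6 libraries alone 1 gene of the list rose and 1 fell.

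Among 11 tested transcripts that serve as markers of BET inhibition, 4 rose (36.4%, against 9.57% of all genes) and 1 fell (9.09%, against 12.7%). Besides HEXIM1, the histone genes H2BC21 (1.12, adjusted p = 0.021) and H2BC12 (0.64, adjusted p = 0.0447) and the gene ZCCHC24 (0.88, adjusted p = 0.0111) rose on the log2 scale. H2BC21 was low, with 1.27, 0.229 and 0.786 CPM in DMSO and 2.15, 0.374 and 2.56 CPM in AZD, so that it rose within each number while the groups overlapped. IL7R, the receptor of interleukin-7, fell by 0.75 on the log2 scale (adjusted p = 0.0344). SERPINI1, another marker of the class, had a log2 fold change of −0.11 (adjusted p = 0.552). Without the replicate term 0 of the 11 rose, without AZD replicate 3 1 did (ZCCHC24) and without DMSO replicate 3 2 did.

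MYC did not pass the test. Its levels were 440, 607 and 451 CPM with DMSO and 491, 639 and 459 CPM with AZD (log2 fold change 0.08, standard error 0.08, adjusted p = 0.476). The AZD library lay above the DMSO library in each of the 3 pairs, and the groups overlapped. Its partner MAX was likewise not called (0.13, adjusted p = 0.208). Of the MAX-binding MXD family, whose members act as repressors, MXD3 fell from 34.9, 22.6 and 43.3 CPM to 22.9, 12.9 and 17.9 CPM (log2 fold change −0.89, standard error 0.13, adjusted p = 0.000603). MXD1 rose by 0.34 (adjusted p = 0.0389) and MXD4 by 0.46 (adjusted p = 0.0287), calls that were lost with 1 or more single libraries left out. Exons of CASC11 overlap MYC and exons of PRELID1 overlap MXD3 on the opposite strand.

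The genes with the smallest p on the underexpressed side fell in every pair without overlap of the groups. ARHGAP9, a GTPase-activating protein of blood cells (chromosome 12 of GRCh38, 57472264 to 57488814, minus strand), was at 34.5, 30.8 and 28.1 CPM with DMSO and at 15.4, 11.6 and 11.7 CPM with AZD. Its log2 fold change was −1.27 (standard error 0.10, adjusted p = 1.67e-05). WNT5A, a secreted ligand of non-canonical WNT signalling (chromosome 3, 55465715 to 55490539, minus strand), fell from 35.1, 36.2 and 30.7 CPM to 14.9, 12.5 and 8.18 CPM. The log2 fold change was −1.54 (standard error 0.12, adjusted p = 1.67e-05), with the lowest AZD value in replicate 3. COBLL1 shared that adjusted p, and RASSF6, a member of the RAS association family, went from 7.23, 7.51 and 11.3 CPM to 1.85, 1.02 and 1.31 CPM.

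GFI1B, a transcriptional repressor of the erythroid and megakaryocytic lineages (chromosome 9, 132944000 to 132991687, plus strand), fell from 5.29, 6.0 and 2.08 CPM to 0.590, 0.855 and 0.290 CPM. At −2.92 on the log2 scale (standard error 0.24, adjusted p = 2.37e-05) it had the largest decrease among the DEGs with at least 1 CPM in a group and a single sign in all pairs. MEIS1, a homeobox factor of haematopoietic stem cells, went from 5.25, 4.12 and 8.09 CPM to 1.52, 0.748 and 1.65 CPM (log2 fold change −2.14, adjusted p = 8.32e-05). CAMP, which encodes the antimicrobial peptide cathelicidin, had 10.7, 7.92 and 7.74 CPM with DMSO and 3.24, 2.03 and 1.55 CPM with AZD (−1.95, adjusted p = 8.32e-05). These are genes of other blood lineages, and their counts were low in both groups.

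GNB3, a beta subunit of heterotrimeric G proteins, fell by 1.43 on the log2 scale (adjusted p = 8.32e-05). CD247, the zeta chain of the T-cell receptor complex, fell from 15.3, 18.1 and 18.2 CPM to 7.88, 6.47 and 7.55 CPM (adjusted p = 8.61e-05). ABLIM1, an actin-binding LIM protein (chromosome 10, 114431112 to 114768061, minus strand), was the most abundant of the group and fell from 183, 167 and 201 CPM to 93.7, 82.2 and 68.0 CPM. Its log2 fold change was −1.19 (standard error 0.12, adjusted p = 8.61e-05). The groups did not overlap for any of these 3 genes. Exons on the opposite strand overlap ARHGAP9 (GLI1 and MARS1), GNB3 (CDCA3), GFI1B (TSC1), MEIS1 (2 antisense RNAs) and CD247 (POU2F1), so that reads of these partners could have been counted with them, as it is not given whether counting used the strand.

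Further large decreases concerned genes near the detection limit. TNFRSF11A, the receptor RANK, fell by 2.45 on the log2 scale from 2.43 ± 0.877 to 0.443 ± 0.457 CPM, and NEBL, an actin-associated protein, fell by 2.36 from 3.77 ± 0.891 to 0.731 ± 0.764 CPM (SD, n = 3 each). RTKN2, GPR153, an orphan receptor, and the uncharacterized LOC105374339 fell by 2.16 to 2.23 with at most 2.61 CPM in the mean of the DMSO libraries. All 5 calls were lost without the replicate term, where their adjusted p lay between 0.0501 and 0.0979. That of LOC105374339 was also lost without AZD replicate 3 (adjusted p = 0.0601).

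On the overexpressed side DCXR, a carbonyl reductase of the uronate cycle (chromosome 17, 82035136 to 82037709, minus strand), had the smallest p. It rose from 51.9, 51.9 and 45.8 CPM to 86.4, 115 and 102 CPM (log2 fold change 1.01, standard error 0.10, adjusted p = 8.32e-05). TASOR2, a paralogue of a subunit of the HUSH silencing complex (chromosome 10, 5684731 to 5763779, plus strand), rose from 217, 369 and 376 CPM to 508, 872 and 723 CPM. The log2 fold change was 1.13 (standard error 0.12, adjusted p = 0.000137). TACC1, a centrosome and microtubule protein, rose from 34.3, 44.1 and 22.6 CPM to 58.1, 86.4 and 66.9 CPM (1.10, standard error 0.14, adjusted p = 0.000358). Replicate 2 was the highest AZD library for all of these genes, and the AZD libraries lay above all DMSO libraries.

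PYGB, the brain form of glycogen phosphorylase, rose from 44.8 ± 16.6 to 88.5 ± 13.9 CPM (SD, n = 3 each, log2 fold change 1.04, adjusted p = 0.000518). FAM222A rose from 3.30, 4.86 and 2.95 CPM to 6.74, 12.2 and 12.3 CPM (1.48, adjusted p = 0.00043), and CLHC1 from 3.66 ± 0.245 to 8.04 ± 1.26 CPM (SD, n = 3 each). Exons of RPS27A and CDPF1P1 overlap CLHC1 on the opposite strand, so that their reads could have been counted with it. Of the long non-coding RNAs, MIR3142HG, the host transcript of the immune microRNA gene MIR146A, went from 1.03, 0.916 and 0.786 CPM to 2.87, 3.10 and 3.82 CPM (1.83, standard error 0.23, adjusted p = 0.000356). LINC02352 rose by 1.29 (adjusted p = 0.000358) and GAS6-AS1 by 1.04 (adjusted p = 0.00044). Exons of GAS6 on the opposite strand and of TMEM255B on the same strand overlap GAS6-AS1. The pseudogene GLYATL1P4 rose by 1.18, and its exons overlap those of GLYATL1 on the same strand.

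The largest increases lay at low levels. The immunoglobulin lambda constant gene IGLC3 went from 0.835, 1.51 and 0.275 CPM to 4.30, 2.46 and 1.89 CPM and its pseudogene copy IGLC5 from 0.278, 0.275 and 0 CPM to 1.90, 0.588 and 0.726 CPM. Both belong to a family of near-identical copies between which reads cannot be assigned with certainty. The membrane carboxypeptidase gene CPM rose by 2.14 on the log2 scale (adjusted p = 0.00143), and AZD replicate 3 was its highest library. It had 7, 3 and 10 counts in the DMSO libraries. Exons of MDM2 overlap it on the opposite strand, so that reads of MDM2 could have been counted with it. GBGT1, a glycosyltransferase, rose by 1.77 and CUEDC1 by 1.67, and LOC107984334 rose by 2.72. FCER2, which encodes the low-affinity IgE receptor CD23, went from 1.43, 3.85 and 0.589 CPM to 3.50, 13.1 and 2.56 CPM (1.68, adjusted p = 0.00227). It rose in each pair, while the groups overlapped because replicate 2 was high in both. Among these, all but LOC107984334 lost their call without the replicate term.

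**Figure D2:**
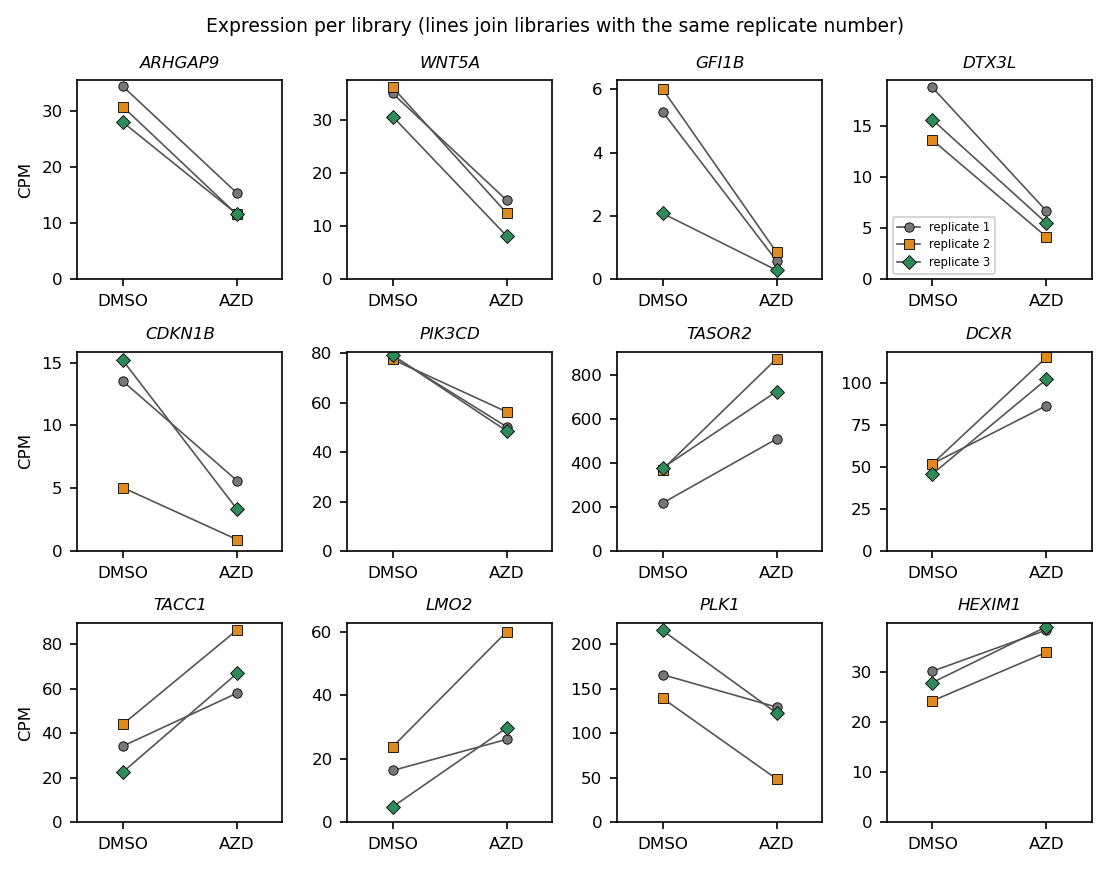
Normalized level (CPM, linear axes from 0) of 12 genes in the 3 DMSO and 3 AZD libraries, with lines joining libraries of the same replicate number. ARHGAP9, WNT5A, GFI1B, DTX3L and PIK3CD are lower and TASOR2, DCXR and TACC1 higher in every AZD library than in any DMSO library, while for CDKN1B the lowest DMSO library (5.04 CPM) lies below the highest AZD library (5.60 CPM).

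Genes of cell division formed the largest group that moved in a single direction. Of 64 tested mitosis genes 54 fell (84.4%, against 12.7% of all genes) and 0 rose, and all 64 had a negative log2 fold change, with a median of −0.70. UBE2C, the ubiquitin-conjugating enzyme of the anaphase-promoting complex, fell from 78.8, 66.5 and 104 CPM to 53.7, 19.0 and 41.4 CPM (log2 fold change −1.25, standard error 0.24, adjusted p = 0.00283). PLK1, the polo-like kinase of mitotic entry, went from 166, 139 and 215 CPM to 129, 48.8 and 123 CPM (−0.94, adjusted p = 0.00839). In both genes AZD replicate 2 was the lowest library, and the AZD libraries lay below all DMSO libraries.

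Besides UBE2C, the mitotic DEGs included CDC25C, the phosphatase that activates CDK1 (−1.19), and the kinesins KIF20A (−1.15) and KIF14 (−1.02). The kinase AURKB (−1.05) and cyclin A, CCNA2 (−1.03), were the remaining ones. FOXM1, the transcription factor of the G2 and M phases, fell by 0.95 on the log2 scale (adjusted p = 0.00439), CDK1 by 0.81 (adjusted p = 0.00479) and the proliferation marker MKI67 by 0.75 (adjusted p = 0.0331). MKI67 went from 668, 801 and 1205 CPM to 696, 323 and 690 CPM. In replicate 1 it was thus higher with AZD, and the groups overlapped.

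The decrease differed between the numbered pairs. The median level of the 64 mitosis genes, as log2(CPM + 1) relative to the mean of the DMSO libraries, was −0.02, −0.30 and 0.33 in the DMSO libraries and −0.26, −1.39 and −0.40 in the AZD libraries. Within the pairs it was lower with AZD by 0.24, 1.09 and 0.72. DMSO replicate 2 was about as low as AZD replicate 1, and in 26 of the 64 genes all AZD libraries lay below all DMSO libraries. Of the 64 genes 0 passed without the replicate term, and 20 passed without AZD replicate 3. Whether fewer cells in division or less of these transcripts per dividing cell gave the lower level cannot be told apart in bulk RNA.

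The promoters of the mitosis genes share letters that the choice of the list did not use. In the window from 250 bases before to 50 bases after the RefSeq start, 10473 of the 16835 tested genes had a sequence. The cell cycle homology region (CHR), searched as TTTGAA or TTCGAA on both strands, is the element through which the DREAM complex and B-MYB act on G2 and M phase genes, and often lies next to a CCAAT box. It was found in 40 of 54 mitosis promoters (74.1%) against 11.7% of all tested genes with a promoter, a search that was added after the fold changes had been seen. CCAAT on either strand was found in 72.2% against 37.1%. The letters were in 16.3% of the promoters of all genes that fell and in 9.59% of those of genes that rose, but in 15.7% for underexpressed DEGs and 17.9% for overexpressed DEGs. Over all 27305 promoters of the RefSeq table, tested or not, the share was 16.6%. A match of letters is a description and not a measured site.

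The promoters of PRC1, a bundler of spindle microtubules, SPC25, a kinetochore subunit, and KIF14 are shown because they hold both the CHR letters and CCAAT (RefSeq, GRCh38.p14). PRC1 lies on the minus strand of chr15:90994486-90994785, SPC25 on the minus strand of chr2:168890381-168890680 and KIF14 on the minus strand of chr1:200620702-200621001. Matches on either strand are in capitals.

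PRC1: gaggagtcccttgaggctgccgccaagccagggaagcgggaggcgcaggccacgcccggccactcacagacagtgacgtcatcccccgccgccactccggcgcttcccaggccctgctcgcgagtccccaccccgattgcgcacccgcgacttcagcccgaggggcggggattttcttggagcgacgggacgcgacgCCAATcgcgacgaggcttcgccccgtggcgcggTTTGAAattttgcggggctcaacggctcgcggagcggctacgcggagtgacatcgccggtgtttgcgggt

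SPC25: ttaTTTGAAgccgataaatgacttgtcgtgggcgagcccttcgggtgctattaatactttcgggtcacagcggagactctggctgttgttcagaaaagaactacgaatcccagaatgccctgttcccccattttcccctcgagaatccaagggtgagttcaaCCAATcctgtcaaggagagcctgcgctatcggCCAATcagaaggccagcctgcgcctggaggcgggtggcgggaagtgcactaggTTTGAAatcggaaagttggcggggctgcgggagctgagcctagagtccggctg

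KIF14: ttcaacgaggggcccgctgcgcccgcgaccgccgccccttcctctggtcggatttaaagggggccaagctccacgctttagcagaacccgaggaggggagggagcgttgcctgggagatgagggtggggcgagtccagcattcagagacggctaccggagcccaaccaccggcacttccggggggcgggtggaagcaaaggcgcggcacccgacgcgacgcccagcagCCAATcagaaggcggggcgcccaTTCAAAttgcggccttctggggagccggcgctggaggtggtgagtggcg

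PRC1 fell from 122, 101 and 176 CPM to 99.9, 41.9 and 85.3 CPM (log2 fold change −0.89, standard error 0.17, adjusted p = 0.0029). SPC25 fell from 36.4, 27.6 and 37.2 CPM to 22.3, 12.1 and 21.2 CPM (−0.91, standard error 0.18, adjusted p = 0.00344). KIF14 went from 64.7, 50.2 and 102 CPM to 53.9, 15.7 and 47.6 CPM (−1.02, standard error 0.21, adjusted p = 0.00435). All 3 genes fell in each pair, and for KIF14 alone the groups overlapped.

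DNA replication followed with smaller changes. Of 62 tested replication genes 31 fell (50%, against 12.7%) and 2 rose, with a median log2 fold change of −0.41. CDT1, which loads the MCM helicase onto origins, fell from 61.7, 53.5 and 124 CPM to 44.2, 16.3 and 44.7 CPM (−1.23, standard error 0.20, adjusted p = 0.00143). POLE2, a subunit of DNA polymerase epsilon, fell by 0.89 (adjusted p = 0.00252), the chromatin assembly subunit CHAF1B by 0.88 (adjusted p = 0.00504) and the origin subunit ORC1 by 0.86 (adjusted p = 0.0113). Of the helicase genes, MCM5 fell by 0.64 (adjusted p = 0.00136) and MCM7 by 0.73 (adjusted p = 0.0104). The 2 members that rose were ORC5 (0.27) and POLE4 (0.46). The call of ORC5 was lost in 7 of the 11 alternatives and that of POLE4 in 4.

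The median of the 62 genes was lower within the pairs by 0.05, 0.70 and 0.45, least in pair 1. Of the 31 calls 0 were left without the replicate term. Without AZD replicate 3 there were 9, without AZD replicate 2 there were 15 and without DMSO replicate 2 there were 16. The letters of the E2F site (TTTCCCGC, TTTGGCGC or TTTCGCGC, both strands) stood in 21 of 51 promoters of the list (41.2%) against 4.56% of all tested genes with a promoter. Their share was 5.985% among all genes that fell and 3.67% among those that rose. For underexpressed DEGs it was 2.55% and for overexpressed DEGs 2.99%. The CDT1 promoter (plus strand of chr16:88803539-88803838) and the POLE2 promoter (minus strand of chr14:49688165-49688464) are shown with these letters in capitals (RefSeq, GRCh38.p14).

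CDT1: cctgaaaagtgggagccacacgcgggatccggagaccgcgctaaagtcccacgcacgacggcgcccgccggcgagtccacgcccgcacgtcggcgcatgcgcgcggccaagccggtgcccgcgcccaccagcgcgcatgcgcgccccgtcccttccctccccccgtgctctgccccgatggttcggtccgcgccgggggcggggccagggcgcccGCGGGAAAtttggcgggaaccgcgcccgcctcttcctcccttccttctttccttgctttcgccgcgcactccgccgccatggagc

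POLE2: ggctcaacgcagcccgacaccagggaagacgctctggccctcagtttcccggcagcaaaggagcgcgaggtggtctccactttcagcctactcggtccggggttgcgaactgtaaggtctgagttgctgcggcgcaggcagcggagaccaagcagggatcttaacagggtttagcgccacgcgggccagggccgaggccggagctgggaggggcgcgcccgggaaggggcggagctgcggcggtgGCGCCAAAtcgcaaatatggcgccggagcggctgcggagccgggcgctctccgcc

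Among factors around the G1 to S transition some fell. In the E2F and RB family 8 of 17 genes fell (47.1%, against 12.7% of all genes) and 2 rose (11.8%, against 9.57%). A further 7 did not pass, and E2F8 (−1.19, adjusted p = 0.00562), E2F2 (−1.04, adjusted p = 0.00671) and E2F7 (−0.90, adjusted p = 0.00496) led the decreases. E2F4, which acts mostly as a repressor in resting cells, was among those that rose (0.43, adjusted p = 0.0202). Its call was lost without AZD replicate 2, AZD replicate 3 or DMSO replicate 3 (adjusted p = 0.0872, 0.115 and 0.0947). Of 15 G1 cyclins, cyclin-dependent kinases and inhibitors 8 fell (53.3%, against 12.7% of all genes), 0 rose and 7 did not pass. Those that fell include CDK2 (−0.67, adjusted p = 0.00596), CCND2 (−0.91, adjusted p = 0.00397) and CDC25A (−0.72, adjusted p = 0.0196). In the fit without the replicate term 0 genes of either list passed, and without AZD replicate 3 there were 3 that fell in each.

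CDKN1B, the inhibitor p27 that holds cyclin E and CDK2 in check, fell more than any cyclin or kinase of the list. Its levels were 13.5, 5.04 and 15.2 CPM with DMSO and 5.60, 0.909 and 3.34 CPM with AZD (log2 fold change −1.78, standard error 0.27, adjusted p = 0.000911). It fell in each pair, and the groups overlapped because DMSO replicate 2 was low. CDKN1A, the inhibitor p21, was at 3.52 ± 2.73 and 2.33 ± 0.799 CPM (SD, n = 3 each) and did not pass (adjusted p = 0.361).

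DNA repair by recombination had 14 of 35 genes that fell (40%, against 12.7% of all genes) and 2 that rose (5.71%, against 9.57%). In the fit without the replicate term 0 fell and 1 rose. FANCG, a subunit of the Fanconi anaemia core complex, fell from 40.4, 35.7 and 47.4 CPM to 26.4, 15.9 and 24.3 CPM (−0.92, standard error 0.14, adjusted p = 0.000751) without overlap. RAD51AP1 fell by 0.84 (adjusted p = 0.00186), CHEK1 by 0.79 (adjusted p = 0.00881) and BRCA1 by 0.54 (adjusted p = 0.00495). ATR, the kinase that senses stalled forks, rose from 90.6, 109 and 117 CPM to 141, 151 and 166 CPM (0.54, standard error 0.08, adjusted p = 0.00102). It was among the named genes that passed under every alternative tried. For nucleotide synthesis 7 of 30 genes fell (23.3%, against 12.7%) and 3 rose (10%, near the 9.57% of all genes). RRM1 of ribonucleotide reductase had the largest decrease of the list (−0.71, adjusted p = 0.00633). Without AZD replicate 3, 4 repair genes and 0 nucleotide genes fell, and CHEK1 and RRM1 did not pass (adjusted p = 0.0643 and 0.0515). Without AZD replicate 2 there were 7 and 3, and without DMSO replicate 2, 7 repair genes.

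Ribosome biogenesis moved the other way. Of 54 tested genes 27 rose (50%, against 9.57% of all genes) and 0 fell, 51 had a positive log2 fold change and the median was 0.32. RRP12, a factor of small subunit maturation, rose from 29.1, 43.7 and 31.6 CPM to 44.6, 62.0 and 58.6 CPM (0.67, standard error 0.13, adjusted p = 0.00332). POLR1A, the largest subunit of RNA polymerase I, rose by 0.63 (adjusted p = 0.00675), the nucleolar protein NOLC1 by 0.50 (adjusted p = 0.00697) and the rRNA methyltransferase NOP2 by 0.58 (adjusted p = 0.00439). NCL (0.29, adjusted p = 0.0731), NPM1 (0.08, adjusted p = 0.473) and FBL (−0.13, adjusted p = 0.278), the abundant nucleolar proteins, did not pass.

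Within the pairs the median of the list was higher with AZD by 0.37, 0.14 and 0.45. In the fit without the replicate term 0 genes passed, without AZD replicate 3 there were 7 and without AZD replicate 2 there were 12. Without DMSO replicate 1 and without DMSO replicate 3 there were 13 each. CACGTG, the E-box letters bound by MYC with MAX, occurred in 17 of 46 promoters (37.0%) against 10.2% of all tested genes with a promoter. Their share was 13.2% among all genes that rose and 8.29% among those that fell. For overexpressed DEGs it was 5.97% and for underexpressed DEGs 5.11%. The promoters of NOP2 (minus strand of chr12:6568242-6568541) and of NAT10, an RNA acetyltransferase (plus strand of chr11:34105379-34105678), are shown with the E-box in capitals (RefSeq, GRCh38.p14). NAT10 rose from 105, 166 and 134 CPM to 161, 191 and 194 CPM (0.45, adjusted p = 0.00768).

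NOP2: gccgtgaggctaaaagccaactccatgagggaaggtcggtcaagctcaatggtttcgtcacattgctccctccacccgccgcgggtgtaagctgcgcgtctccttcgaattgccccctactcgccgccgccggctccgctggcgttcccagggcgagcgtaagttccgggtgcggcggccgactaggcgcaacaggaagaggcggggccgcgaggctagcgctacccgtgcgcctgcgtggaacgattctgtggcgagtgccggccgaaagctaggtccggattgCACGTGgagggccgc

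NAT10: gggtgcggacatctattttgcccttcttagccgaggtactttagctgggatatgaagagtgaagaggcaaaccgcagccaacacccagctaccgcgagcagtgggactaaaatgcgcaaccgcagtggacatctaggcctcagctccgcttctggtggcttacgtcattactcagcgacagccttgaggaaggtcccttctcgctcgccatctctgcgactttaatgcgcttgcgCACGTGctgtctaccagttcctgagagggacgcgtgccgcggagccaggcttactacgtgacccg

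Of 84 genes of cytosolic ribosomal proteins 36 rose (42.9%, against 9.57% of all genes) and 1 fell (1.19%, against 12.7%). Their median was 0.21. RPLP1 rose from 921, 925 and 773 CPM to 1127, 1172 and 1154 CPM (0.40, adjusted p = 0.00291) and RPS28 from 119 ± 8.81 to 163 ± 14.1 CPM (SD, n = 3 each, 0.46, adjusted p = 0.00161). The member that fell was the paralogue RPL39L (−0.66, adjusted p = 0.00551). For 77 of the 84 genes a named pseudogene copy was among the tested genes, so that the counts of this family are uncertain. Leaving out the replicate term, 2 of them rose, with the 6 libraries alone 8, without AZD replicate 2 or AZD replicate 3 5 each, without DMSO replicate 3 7 and without DMSO replicate 2 18. Without DMSO replicate 1, 58 rose.

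**Figure D3:**
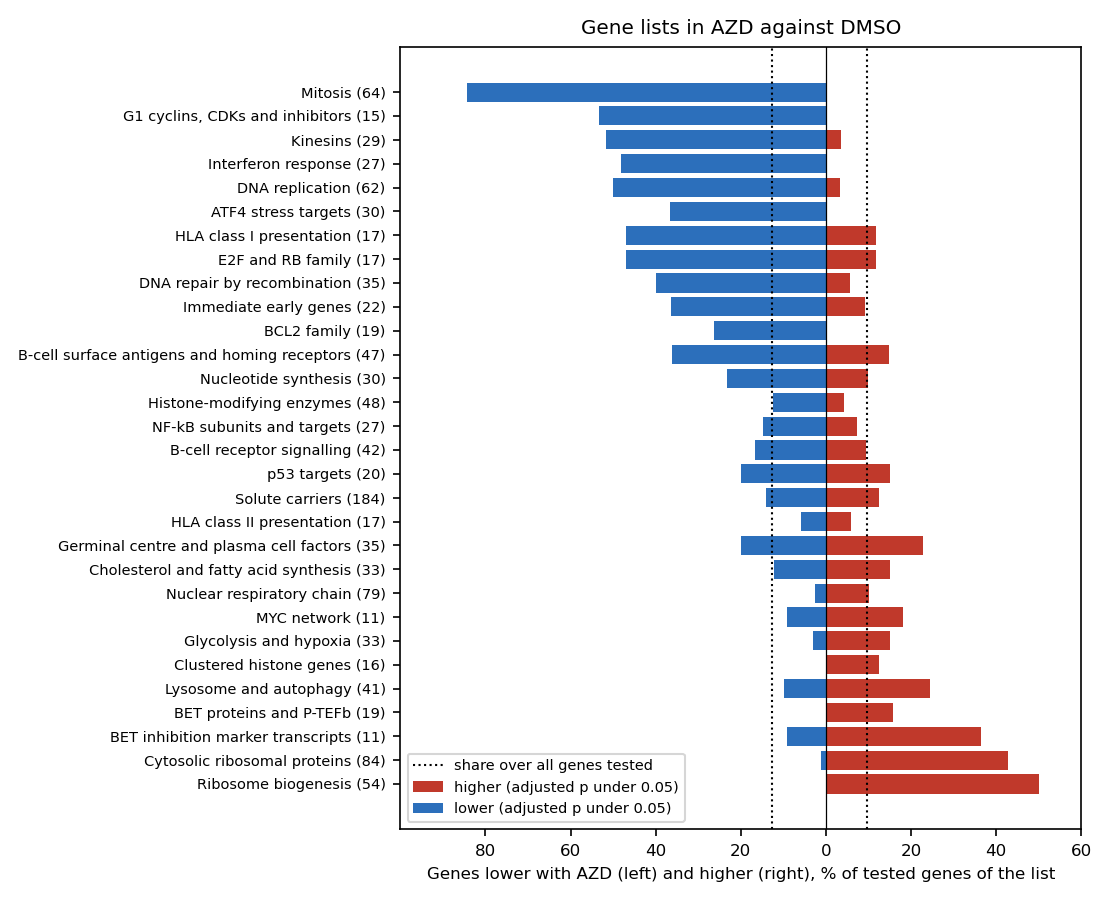
For each gene list with at least 10 tested genes (number in brackets), bars give the percentage of its tested genes that were lower (blue, left) or higher (red, right) with AZD than with DMSO at an adjusted p under 0.05, and dotted lines the percentages over all genes tested. Mitosis reaches 84.4% on the lower side and ribosome biogenesis 50% on the higher side, against 12.7% and 9.57% over all genes.

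Germinal centre factors changed in both directions. Of 35 tested factors of germinal centre and plasma cells 8 rose and 7 fell (22.9% and 20%, against 9.57% and 12.7% of all genes), with a median of −0.03. LMO2, a cofactor used to mark GCB lymphoma, rose from 16.3, 23.8 and 4.91 CPM to 26.1, 60 and 29.8 CPM (1.46, standard error 0.33, adjusted p = 0.00708). XBP1, the factor of the secretory programme of plasma cells, rose from 3.18, 3.21 and 2.16 CPM to 6.78, 7.64 and 4.55 CPM (1.14, standard error 0.16, adjusted p = 0.00052). IRF8, a factor of B cells and myeloid cells, rose by 0.48 on the log2 scale (adjusted p = 0.0013). For all 3 genes the AZD libraries lay above the DMSO libraries.

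On the other side MYB, a factor of progenitor cells, fell from 7.99, 8.70 and 14.2 CPM to 5.77, 3.05 and 6.39 CPM (−1.05, adjusted p = 0.00927). IKZF2, the zinc finger factor Helios, fell from 58.1, 40.1 and 59.4 CPM to 37.1, 19.0 and 20.4 CPM (−1.07, adjusted p = 0.00061). POU2F1 fell by 0.73 (adjusted p = 0.00509) and its coactivator POU2AF1 by 0.23 (adjusted p = 0.0249), and ID3, an inhibitor of E proteins, fell by 0.71 (adjusted p = 0.00112). BCL6, the master factor of the germinal centre, was at 750.2 ± 123 and 895 ± 91.9 CPM (SD, n = 3 each) and did not pass (0.26, adjusted p = 0.0798), and neither did PAX5 (−0.03, adjusted p = 0.801). Without the replicate term 0 genes of this list passed, and without AZD replicate 3, 4 rose and 2 fell. Without AZD replicate 2, 3 rose, and without DMSO replicate 1, 4 rose. The call of MYB was lost without AZD replicate 3 (adjusted p = 0.0827), as were those of POU2F1 (adjusted p = 0.0531) and POU2AF1 (adjusted p = 0.133).

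B-cell receptor signalling had 4 of 42 genes that rose and 7 that fell (9.52% and 16.7%), shares near those of all genes. PIK3CD, the lymphoid catalytic subunit of PI3-kinase, was at 79.0, 77.6 and 79.3 CPM with DMSO and at 50.3, 56.3 and 48.6 CPM with AZD, a decrease beyond the spread of either group (−0.61, standard error 0.08, adjusted p = 0.000358). The exchange factors of RAS changed in opposite directions. RASGRP1 fell from 183, 187 and 177 CPM to 128, 140.0 and 107 CPM (−0.55, adjusted p = 0.000379). RASGRP3 rose from 104, 139.5 and 119 CPM to 194, 229.9 and 193 CPM (0.77, standard error 0.09, adjusted p = 0.000253).

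These 3 genes held under every alternative tried. RASGRP2 fell by 0.65 (adjusted p = 0.000935), the inhibitory coreceptor CD72 by 0.87 (adjusted p = 0.00107) and the adaptor BLNK by 0.30 (adjusted p = 0.0154), while CD22, another inhibitory coreceptor, rose by 0.62 (adjusted p = 0.0114). The last group lost its calls without the replicate term. BLNK was also lost without AZD replicate 2, AZD replicate 3 or DMSO replicate 3 (adjusted p = 0.0661, 0.0936 and 0.0641) and CD22 without AZD replicate 3 (adjusted p = 0.0819). Exons of CLSTN1 overlap PIK3CD on the opposite strand, and exons of FAM98A overlap RASGRP3.

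Surface antigens and homing receptors had 17 of 47 genes that fell (36.2%) and 7 that rose (14.9%), against 12.7% and 9.57% of all genes. S1PR4, a receptor of the lymphocyte egress signal sphingosine 1-phosphate, fell from 1.43, 1.01 and 0.550 CPM to 0.295, 0.267 and 0.145 CPM (−2.04, standard error 0.37, adjusted p = 0.00238). CD84, an adhesion receptor of the SLAM family, fell from 13.9, 14.1 and 18.9 CPM to 7.84, 6.41 and 4.69 CPM (−1.31, adjusted p = 0.000518). The chemokine receptors CXCR4 (−0.73, adjusted p = 0.00808) and CXCR5 (−0.56, adjusted p = 0.00695), which sort B cells between zones and follicles, fell as well. Among those that rose were SLAMF1 (1.14, adjusted p = 0.0161), the interleukin-4 receptor IL4R (0.54, adjusted p = 0.00267) and the activation antigen CD83 (0.49, adjusted p = 0.00268).

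S1PR4 and CD84 were the members named here that passed without the replicate term. CXCR4 was lost without AZD replicate 2 or AZD replicate 3 (adjusted p = 0.0525 and 0.0596), CXCR5 without AZD replicate 3 (adjusted p = 0.0666) and SLAMF1 without AZD replicate 1, AZD replicate 3 or DMSO replicate 1 (adjusted p = 0.0668, 0.0698 and 0.0931). Over the list, 6 genes fell without AZD replicate 3, 11 without AZD replicate 2 or DMSO replicate 1 and 10 without DMSO replicate 3.

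In the BCL2 family, whose members promote or restrain apoptosis at mitochondria, 5 of 19 genes fell (26.3%, against 12.7% of all genes) and 0 rose. BBC3, the pro-apoptotic protein PUMA, fell from 6.72, 6.32 and 7.98 CPM to 4.59, 2.46 and 2.66 CPM (−1.12, standard error 0.22, adjusted p = 0.0034), and passed under every alternative. Of the other pro-apoptotic members, HRK fell by 1.09 (adjusted p = 0.0259) and BMF by 0.47 (adjusted p = 0.00917). Of the anti-apoptotic members, BCL2A1 fell by 0.71 (adjusted p = 0.0102) and BCL2L1 by 0.35 (adjusted p = 0.0146). BCL2 (0.11, adjusted p = 0.426), MCL1 (0.25, adjusted p = 0.0596) and BCL2L11, which encodes BIM (0.23, adjusted p = 0.0532), did not pass. Without AZD replicate 2 or AZD replicate 3, 2 genes fell, without DMSO replicate 1, 3 did, and in the fit without the replicate term 1 did.

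Interferon response genes were the next list with calls in 1 direction only. Of 27 tested genes 13 fell (48.1%, against 12.7% of all genes) and 0 rose, with 6 DEGs and a median of −0.34. In 11 of the 27 genes all AZD libraries lay below all DMSO libraries. The median level of the list was lower within the pairs by 0.47, 0.26 and 0.15. With single libraries left out 9 to 13 genes passed, and without the replicate term 4 did.

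DTX3L, a ubiquitin ligase of the antiviral and DNA damage response, fell from 18.8, 13.7 and 15.6 CPM to 6.70, 4.17 and 5.52 CPM (−1.57, standard error 0.15, adjusted p = 8.32e-05). PARP9, its binding partner, fell from 24.4, 17.9 and 21 CPM to 10.8, 5.66 and 7.35 CPM (−1.43, standard error 0.18, adjusted p = 0.000341). The genes lie head to head on chromosome 3 and have overlapping exons on opposite strands, so that reads may be shared. EPSTI1 fell from 16.4, 14.1 and 12.2 CPM to 8.55, 4.92 and 3.97 CPM (−1.31, adjusted p = 0.000366). None of these 3 genes had overlapping groups, and all 3 passed under every alternative.

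IFIT2, an antiviral RNA-binding protein, fell by 1.36 (adjusted p = 0.000656) and the growth inhibitor SAMD9L by 1.86 from 1.95, 1.01 and 0.432 CPM (adjusted p = 0.00161), in each pair but with overlapping groups. For the presentation of antigens on HLA class I, 8 of 17 genes fell (47.1%) and 2 rose (11.8%). Over all genes 12.7% fell and 9.57% rose. NLRC5, the transactivator of these genes, fell from 13.9, 17.4 and 6.37 CPM to 6.36, 10.8 and 3.34 CPM (−0.90, standard error 0.12, adjusted p = 0.00043).

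The peptide-trimming protease gene ERAP2 (−0.61, adjusted p = 0.00401) and the immunoproteasome gene PSMB8 (−0.47, adjusted p = 0.00445) also fell, while the chaperones CALR (0.47, adjusted p = 0.0128) and PDIA3 (0.40, adjusted p = 0.00776) rose. Both were lost without AZD replicate 2 (adjusted p = 0.0646 and 0.0572) or AZD replicate 3 (adjusted p = 0.0927 and 0.055), and CALR also without DMSO replicate 3 (adjusted p = 0.062). B2M, the invariant chain, was not called (−0.10, adjusted p = 0.43). Without the replicate term 1 of the 8 calls was left, and with single libraries left out 4 to 7. HLA class II presentation had 1 of 17 genes that rose, CD74 (0.44, adjusted p = 0.014), and 1 that fell (5.88% each). CD74 was lost without the replicate term (adjusted p = 0.384) and without AZD replicate 2, AZD replicate 3 or DMSO replicate 3 (adjusted p = 0.051, 0.108 and 0.0653).

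Targets of ATF4, the factor of the integrated stress response, fell without exception among those called. Of 30 tested genes 11 fell (36.7%, against 12.7% of all genes) and 0 rose, with a median of −0.20. TRIB3, a pseudokinase, fell from 45.5, 43.7 and 56.0 CPM to 29.8, 28.1 and 24.7 CPM (−0.82, standard error 0.11, adjusted p = 0.000532). CTH, the enzyme that makes cysteine from cystathionine, fell from 5.52, 5.27 and 8.17 CPM to 4.05, 2.24 and 2.08 CPM (−1.18, adjusted p = 0.00281). SLC7A11, the cystine importer, fell by 1.09 (adjusted p = 0.00171) and CHAC1, a glutathione-degrading enzyme, fell by 1.44 (adjusted p = 0.0217). ATF4 itself fell by 0.32 (adjusted p = 0.0148), and DDIT3 was not called (−0.44, adjusted p = 0.139).

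TRIB3 and CTH passed under every alternative. Without the replicate term 3 of the 30 genes passed, and without AZD replicate 2 or AZD replicate 3 there were 5 each. CHAC1 was lost without AZD replicate 2, AZD replicate 3 or DMSO replicate 3 (adjusted p = 0.0891, 0.133 and 0.116), and ATF4 without AZD replicate 2, AZD replicate 3 or DMSO replicate 2 (adjusted p = 0.108, 0.0579 and 0.0639).

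**Figure D4:**
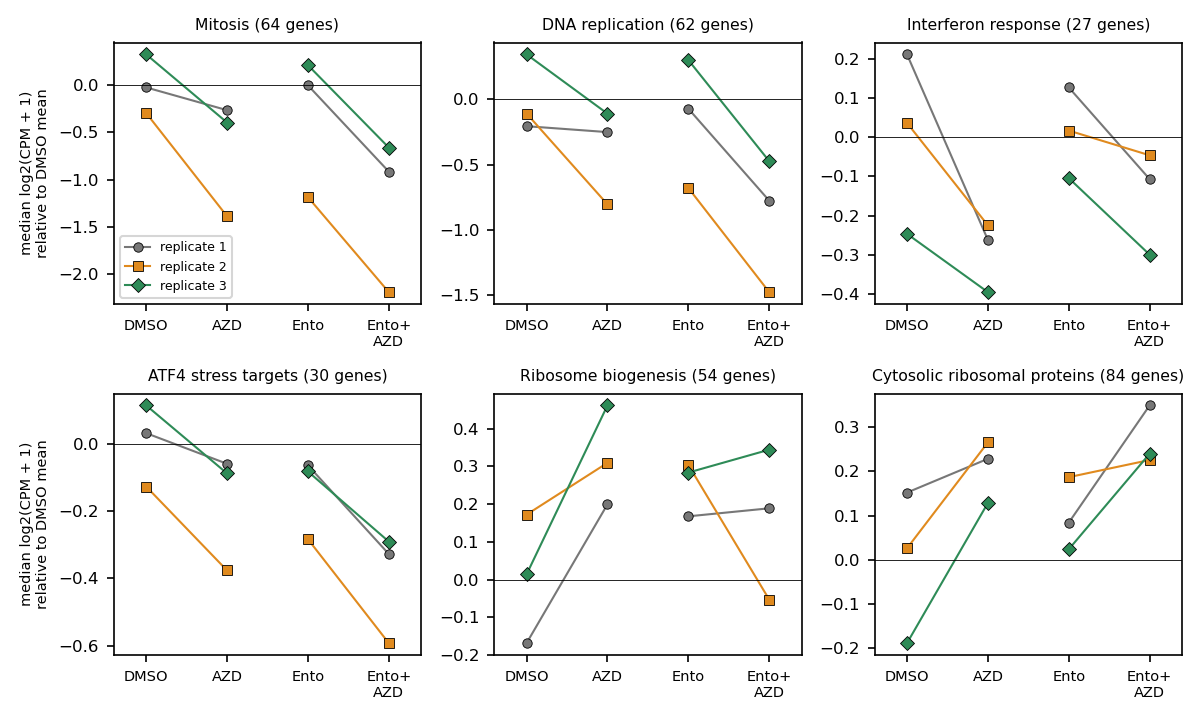
Median log2(CPM + 1) of the tested genes of 6 lists in each library, relative to the mean of the 3 DMSO libraries, with lines joining libraries that differ in AZD and share the replicate number. For mitosis the level falls along every line, to −1.39 in AZD replicate 2 and −2.19 in Ento+AZD replicate 2, whereas for ribosome biogenesis it is higher with AZD alone in all 3 pairs but lower in pair 2 with Ento+AZD.

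Immediate early genes, which respond within minutes to signals, had 8 of 22 members that fell and 2 that rose after 72 h (36.4% and 9.09%, against 12.7% and 9.57% of all genes). DUSP1, a phosphatase of MAP kinases, fell from 31.1, 8.93 and 16.6 CPM to 14.3, 3.47 and 8.27 CPM (−1.15, standard error 0.14, adjusted p = 0.000253). It was less than the DMSO library of the same number in each pair, although the DMSO libraries differed more among themselves than the group means. ZFP36, which destabilizes cytokine mRNAs, fell by 0.77 (adjusted p = 0.00125), FOS by 0.90 (adjusted p = 0.0187) and JUN by 0.78 (adjusted p = 0.0136), while EGR1 was not called (0.07, adjusted p = 0.903). Over the list, 0 genes passed without the replicate term and 5 fell without AZD replicate 3. FOS and JUN were lost without AZD replicate 3 (adjusted p = 0.11 and 0.0813) or DMSO replicate 1 (adjusted p = 0.113 and 0.0649).

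Among NF-kB subunits and targets 4 of 27 genes fell and 2 rose (14.8% and 7.41%), near the shares of all genes (12.7% and 9.57%). CFLAR, the inhibitor of caspase-8 called FLIP, fell from 25.6, 27.1 and 29.4 CPM to 14.8, 15.1 and 10.8 CPM (−1.02, standard error 0.14, adjusted p = 0.000433) and passed under every alternative. TRAF1 fell by 0.65 (adjusted p = 0.00684). TNF rose from 0.636, 0.504 and 0.668 CPM to 1.60, 1.02 and 1.55 CPM (1.20, adjusted p = 0.0118), without overlap. TRAF1 was lost without AZD replicate 3 (adjusted p = 0.0526) and TNF without AZD replicate 1, AZD replicate 3 or DMSO replicate 3 (adjusted p = 0.0515, 0.0558 and 0.0517). Over the list, 2 genes fell without AZD replicate 2 and 1 without AZD replicate 3. Of 20 p53 targets 3 rose and 4 fell (15% and 20%, against 9.57% and 12.7% of all genes). Without AZD replicate 2 or AZD replicate 3, 1 p53 target fell, without DMSO replicate 3, 2 fell, and in the fit without the replicate term 1 rose and 1 fell.

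Among metabolic lists, glycolysis and hypoxia had 5 of 33 genes that rose (15.2%) and 1 that fell (3.03%). The nuclear genes of the respiratory chain had 8 of 79 (10.1%) and 2 (2.53%), and cholesterol and fatty acid synthesis 5 of 33 (15.2%) and 4 (12.1%). Over all genes 9.57% rose and 12.7% fell. The respiratory chain was thus near the share of all genes on the higher side, and cholesterol and fatty acid synthesis on the lower side. The median level of the glycolysis and hypoxia genes was 0.48 higher with AZD in pair 1, but differed by −0.15 and −0.20 in pairs 2 and 3. In cholesterol and fatty acid synthesis, FASN, the fatty acid synthase, rose by 0.47 (adjusted p = 0.00657) and ELOVL6, which elongates its product, fell by 0.70 (adjusted p = 0.00552). Lysosome and autophagy genes had 10 of 41 members that rose (24.4%, against 9.57% of all genes) and 4 that fell (9.76%, against 12.7%). MAN2B1, the lysosomal alpha-mannosidase, rose from 75.7, 97.1 and 83.9 CPM to 114, 135 and 124 CPM (0.54, standard error 0.09, adjusted p = 0.00166). Leaving out the replicate term, 0 lysosome genes rose, and without AZD replicate 3, 2 did.

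Of 184 solute carrier genes 23 rose and 26 fell (12.5% and 14.1%), near the shares of all genes. SLC26A1, a sulfate transporter, rose from 1.71, 3.02 and 1.30 CPM to 4.13, 7.75 and 6.77 CPM (1.65, adjusted p = 0.000939), and SLC12A5, a potassium chloride cotransporter of neurons, fell from 1.19, 1.24 and 1.06 CPM to 0.295, 0.428 and 0.145 CPM (−2.01, adjusted p = 0.00101). Histone-modifying enzymes and DNA demethylases or methyltransferases had 2 of 48 members that rose and 6 that fell (4.17% and 12.5%, against 9.57% and 12.7% of all genes), on the lower side thus near the share of all genes. Those that fell include TET1 (−1.09, adjusted p = 0.0165), DNMT3B (−0.97, adjusted p = 0.00151) and the H3K36 methyltransferase NSD2 (−0.64, adjusted p = 0.00565), while EZH2, a drug target in GCB lymphoma, was not called (−0.24, adjusted p = 0.0839). TET1 was lost without AZD replicate 2 or AZD replicate 3 (adjusted p = 0.0739 and 0.106).

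The same genes were looked up in Ento+AZD against Ento, 6 libraries outside the contrast of AZD with DMSO but in the same fit, with a shared estimate of the spread and replicate term. In these, the same concentration of AZD was added to cells with Ento. There 1393 genes rose (8.27%) and 2047 fell (12.2%). Of the 111 overexpressed DEGs of AZD alone 96 had the same sign and 51 (45.9%) also rose there. Of the 426 underexpressed DEGs 402 had the same sign, 244 (57.3%) also fell and 1 passed in the opposite direction. Over all genes 73.2% had the same sign. GFI1B (−1.88, adjusted p = 0.00016), WNT5A (−1.38, adjusted p = 4.55e-05), DCXR (1.24, adjusted p = 2.83e-05), TASOR2 (1.04, adjusted p = 0.000271) and DTX3L (−1.66, adjusted p = 0.000115) were among the genes that passed in both.

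**Figure D5:**
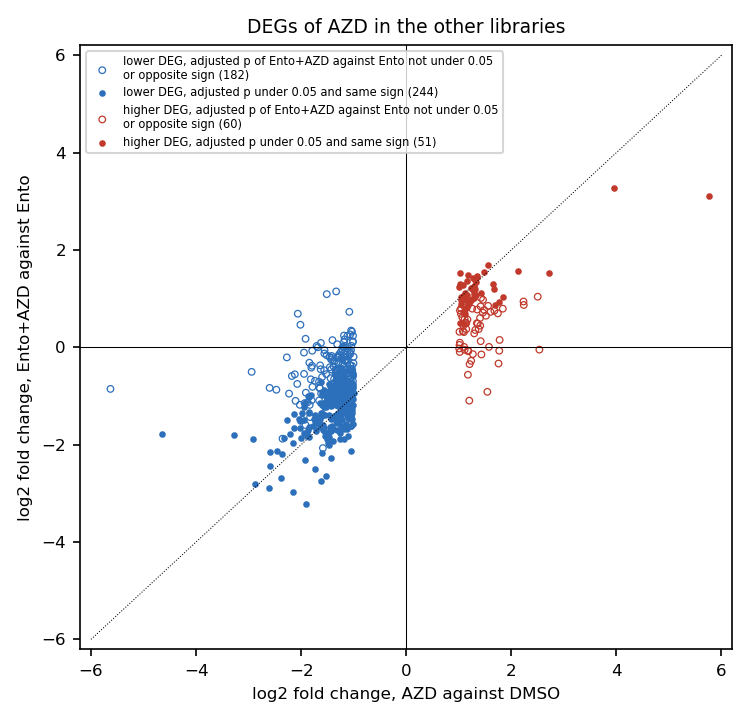
Log2 fold changes of the 537 DEGs of AZD alone against DMSO (horizontal) and of Ento+AZD against Ento (vertical), where filled points have the same sign and an adjusted p under 0.05 in the second comparison and the dotted line marks equal values. Of the underexpressed DEGs 244 and of the overexpressed DEGs 51 are filled.

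By list, all 64 mitosis genes fell when AZD was added to Ento, with a median of −0.96 against −0.70 with AZD alone. DNA replication had 50 of 62 genes that fell and 1 that rose (median −0.83). In the interferon response 11 of 27 fell and 2 rose. Over all genes 12.2% fell and 8.27% rose there. Ribosome biogenesis differed in its values, as 0 of 54 genes rose and 3 fell with Ento+AZD against Ento (median −0.06). With Ento alone against DMSO 10 of the 54 rose and 0 fell (median 0.25). Over all genes, 1401 of 16835 passed with Ento against DMSO, a count that holds both directions. Between AZD and Ento 0 of the 54 were higher and 2 lower with AZD. For cytosolic ribosomal proteins 24 of 84 rose. Among single genes, ABLIM1 (−0.20, adjusted p = 0.24), BBC3 (−0.08, adjusted p = 0.818), IGLC3 (−0.33, adjusted p = 0.398) and TNF (−1.10, adjusted p = 0.0863) did not pass there. When the difference between the 2 effects of AZD was itself tested as an interaction, 0 genes passed (0%). At an unadjusted p under 0.05 it had 1652 genes, the smallest adjusted p was 0.444, and DESeq2 called 7 genes. Without DMSO replicate 2 edgeR called 213.

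The BET inhibitor was also set directly against the SYK inhibitor, each at its own concentration. Between AZD and Ento 964 genes were higher with AZD (5.73%) and 1514 lower (8.99%). Of the underexpressed DEGs of AZD 232 were also lower than with Ento, and of the overexpressed 30 were higher. The same 3 AZD libraries enter both comparisons, so that the choice of the DEGs raises these counts, which are no independent check. WNT5A (−1.91, adjusted p = 4.22e-07), S1PR4 (−3.71, adjusted p = 5.41e-06), PIK3CD (−0.90, adjusted p = 5.41e-06) and GFI1B (−3.37) were lower with AZD than with Ento. DCXR (1.05), LMO2 (2.27, adjusted p = 0.000521) and SLAMF1 (3.53) were higher. Part of these differences was a change with Ento against DMSO, as in S1PR4 (1.66 with Ento, adjusted p = 0.000977), PIK3CD (0.29, adjusted p = 0.0314) and SLAMF1 (−2.39, adjusted p = 0.00545). Of the 64 mitosis genes 5 were lower with AZD than with Ento, and of the 27 interferon response genes 14.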

How the data were processed

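RNA of SU-DHL-4 cells was sequenced in 12 libraries, 3 per group, as described in the labels. The authors trimmed the reads, used Rsubread for alignment to GRCh38.p13 and for counting by gene symbol, and the deposited counts are raw and not pooled. Whether the counting used the strand is not given in the sources used here. The authors' deposited log2 values were not used.

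The counts were tested here with edgeR (version 4.0.16, R 4.3.3). Genes were filtered with filterByExpr (minimum count 10, minimum total 15), libraries were scaled by TMM, and a quasi-likelihood model with treatment and replicate number was fitted to all 12 libraries, after the study's model of treatment and batch. That the replicate number marks the batch is an assumption made here, which neither the labels nor the methods state. Benjamini-Hochberg adjustment ran over all 16835 genes. A gene passed at an adjusted p under 0.05, and DEGs also had an absolute log2 fold change over 1. Standard errors were derived from the F statistic. The script was tested on simulated data. Deviations from the group means of same-numbered libraries correlated at 0.213 to 0.703 (18 pairs), and those of differently numbered libraries at −0.627 to 0.325 (36 pairs). The p-values rest on the spread left after the treatment and replicate terms, over all 12 libraries of 1 cell line. Differences between the replicate numbers are not part of that spread.

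The genes, lists and motifs were chosen with earlier results of these data known. Genes are named if they were among the 10 with the smallest p or the 8 with the largest absolute log2 fold change per direction, among DEGs with the same sign in all 3 pairs (for the latter, at a mean of at least 1 CPM in a group), or if they belong to a list, those that passed first and then defining members. Some genes of the lists are not reported here by name. Overlapping genes on the other strand and Ento effects are given only beside a result. Coordinates are from GENCODE v44 on GRCh38, and promoters from RefSeq. Alternatives were the model without the replicate number, RLE normalization, no filter, DESeq2 (version 1.42.0), the 6 libraries alone, a fold threshold of 1.5 and each library left out in turn. Single genes and lists were followed over at most 11 of these. For them only AZD or DMSO libraries were left out, and the fold threshold was not used.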

Additional observations from a re-analysis of the deposited data

How the results depend on the processing

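The calls depended most on the replicate block and on single libraries, and the cause was not tested. Without the replicate block that pairs the libraries, AZD against DMSO had 105 genes that rose and 221 that fell, with 18 overexpressed and 96 underexpressed DEGs. In the same fit Ento+AZD against Ento gave 70 and 136 genes, and AZD against Ento 168 and 371. With single libraries left out, AZD against DMSO ranged from 438 (without AZD replicate 3) to 1529 genes that rose and from 815 (without AZD replicate 3) to 2020 that fell. The DEGs ranged from 56 to 166 overexpressed and from 212 to 574 underexpressed, both lowest without AZD replicate 3. Ento+AZD against Ento ranged from 434 to 1270 higher and from 968 to 1733 lower, both lowest without Ento replicate 3. AZD against Ento ranged from 363 (without Ento replicate 3) to 703 higher and from 775 (without AZD replicate 3) to 1217 lower. The interaction ranged from 0 to 213 genes (without DMSO replicate 2), and had 278 genes without the low-count filter and 7 with DESeq2. With the 6 libraries alone 896 genes rose, and at a fold threshold of 1.5 there were 390 overexpressed and 1095 underexpressed DEGs. Of 193 named genes that passed, 35 did so in the same direction under every alternative followed for single genes. Of the 193, 158 were lost without the replicate block, 86 were lost with at least 1 AZD or DMSO library left out and 0 reversed. At these depths genes near 1 CPM rest on few counts per library.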
